A study of Mus musculus with 12 samples.

Results

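The genes described here carry an interferon signal from the cell surface to the genome: the receptor chains *Ifnar1*, *Ifnar2* and *Ifngr1*, the receptor-bound kinases *Jak1* and *Tyk2*, the transcription factor *Stat2*, and the interferon regulatory factors *Irf1*, *Irf7* and *Irf9*. They were chosen by name as a pathway, with earlier results of these data known, and all 9 of the 9 listed had a row among the 13232 genes measured. RNA was measured in bone marrow-derived macrophages, a culture in which mouse marrow is differentiated by the growth factor M-CSF. The donors were wild-type C57B6/J mice on a high-fat diet (HFD) or on a normal diet (ND). All cultures received 20 ng/ml of M-CSF, were moved from medium with 10% serum to a serum-free medium on day 4, and spent 1 h at 1% oxygen on day 7, so the ND controls carried the hypoxia as well. The comparison is between 3 HFD and 3 ND libraries, and it asks what the diet of the donor mouse alters in macrophages held at low oxygen. Cells held at normal oxygen were not analysed here, so nothing is said of the response to hypoxia itself. The labels do not say whether the 3 libraries of a diet came from separate mice or cultures, nor the animals' age or time on the diet, so the p-values measure only the spread between these libraries, which may be technical.

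Type I interferons bind a receptor made of the IFNAR1 and IFNAR2 chains, which are held by the kinases TYK2 and JAK1. The kinases phosphorylate STAT2, which with IRF9 is part of ISGF3, a complex that binds the interferon-stimulated response element (ISRE). Type II interferon (IFN-gamma) binds IFNGR1 and its partner chain, acts through the gamma-activated site (GAS) and induces IRF1. IRF7 is itself induced by ISGF3 and amplifies the production of type I interferon, so several genes of the pathway are also its targets. Macrophages express both receptors and are known to keep a low tonic level of this signalling.

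The promoters of 3 members are shown because these genes are known targets of the pathway and carry the contrast described here. They are RefSeq sequences on GRCm38.p6, from 250 bases before to 50 bases after RefSeq's start of the gene, which can differ from the GENCODE ends given with each gene further on, read 5′ to 3′ on the gene's strand. Matches to an ISRE-like pattern (GAAA, then NN, then GAAA, searched on both strands, so that it can also read TTTC, NN, TTTC) and to a GAS-like pattern (TTCNNNGAA, its own reverse complement) are in capitals.
*Stat2*, chr10:128270248-128270547, plus strand: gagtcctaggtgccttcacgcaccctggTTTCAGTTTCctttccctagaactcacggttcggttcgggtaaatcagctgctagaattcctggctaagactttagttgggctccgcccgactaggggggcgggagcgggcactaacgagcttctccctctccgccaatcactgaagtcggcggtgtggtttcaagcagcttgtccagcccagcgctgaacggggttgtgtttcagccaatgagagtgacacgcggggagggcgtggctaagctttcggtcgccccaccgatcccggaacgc
*Irf1*, chr11:53769764-53770063, plus strand: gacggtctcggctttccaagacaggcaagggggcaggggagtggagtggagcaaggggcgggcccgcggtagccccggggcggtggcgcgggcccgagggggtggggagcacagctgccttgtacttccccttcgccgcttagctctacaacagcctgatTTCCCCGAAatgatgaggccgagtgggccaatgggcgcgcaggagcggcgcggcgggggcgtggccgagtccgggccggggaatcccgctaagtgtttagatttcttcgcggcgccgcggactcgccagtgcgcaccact
*Irf7*, chr7:141266375-141266674, minus strand: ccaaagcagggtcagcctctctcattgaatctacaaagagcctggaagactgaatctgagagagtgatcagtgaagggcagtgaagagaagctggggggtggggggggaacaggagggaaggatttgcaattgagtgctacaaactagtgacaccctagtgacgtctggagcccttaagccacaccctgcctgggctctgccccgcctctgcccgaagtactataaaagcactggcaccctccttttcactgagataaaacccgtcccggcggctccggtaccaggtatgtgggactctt

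The *Stat2* window holds 1 ISRE-like match, TTTCAGTTTC, from 222 to 213 bases before that RefSeq start. The *Irf1* window shown holds 1 GAS-like match, TTCCCCGAA, from 90 to 82 bases before its start, and a second RefSeq window of *Irf1*, chr11:53770223-53770522, holds neither pattern. Neither pattern occurs in the *Irf7* window, which says only that these letters are not in that window. Of 32851 promoters in the RefSeq table, 3.44% held the ISRE-like pattern and 8.30% the GAS-like pattern. All 9 members had a promoter in that table. The only ISRE-like match among them was that of *Stat2*, and GAS-like matches were found for *Irf1*, *Ifnar1* and *Ifnar2*. A match of letters is a description and does not show that a factor binds there.

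The values are gene read estimates divided by a size factor for each library, so they compare libraries but not genes of different length. Libraries held an estimated 19046400 to 24491500 reads, every HFD library being deeper than every ND library before scaling. The members rested on 415 to 8161 estimated reads per library, which puts counting error alone between 1.11% and 4.91% of a value. All 8 of 8 macrophage markers were present, with summed values of 345313 to 395574 in ND and 342872 to 402478 in HFD. ND replicate 3 lay near the HFD libraries: across genes its rank correlation was 0.994 with HFD replicates 1 and 2, against 0.993 and 0.992 with ND replicates 1 and 2. HFD replicate 1 likewise lay near the ND libraries. Its rank correlation was 0.9927, 0.9938 and 0.9944 with ND replicates 1 to 3, against 0.9955 and 0.9921 with HFD replicates 2 and 3. Results that turn on ND replicate 3 are given with and without it. Differences were tested with limma on log2(value + 1), with p-values adjusted over all 13232 genes by Benjamini-Hochberg, and a gene was called at an adjusted p under 0.05. By this rule 0 of 13232 genes were called (0.0%), and 1401 had an unadjusted p under 0.05 (10.6%). Without ND replicate 3 the counts were 233 and 2309, and the unadjusted count was 700 without ND replicate 1 and 726 without HFD replicate 2.

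None of the members was called. Of the 9, 8 had a log2 fold change below 0 (HFD minus ND), against 51.1% of all genes, and the median over the members was -0.089, against -0.0034 over all genes. The spread among them was wide, from -0.53 for *Irf7* to 0.013 for *Ifngr1*. An unadjusted p under 0.05 with lower values in HFD was found for *Irf7* and *Stat2*, against 5.18% of all genes, and with higher values for 0 members, against 5.4%. Only *Irf7* had diets that did not overlap, lower in HFD, against 7.07% of all genes lower and 7.44% higher without overlap.

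**Figure D1:**
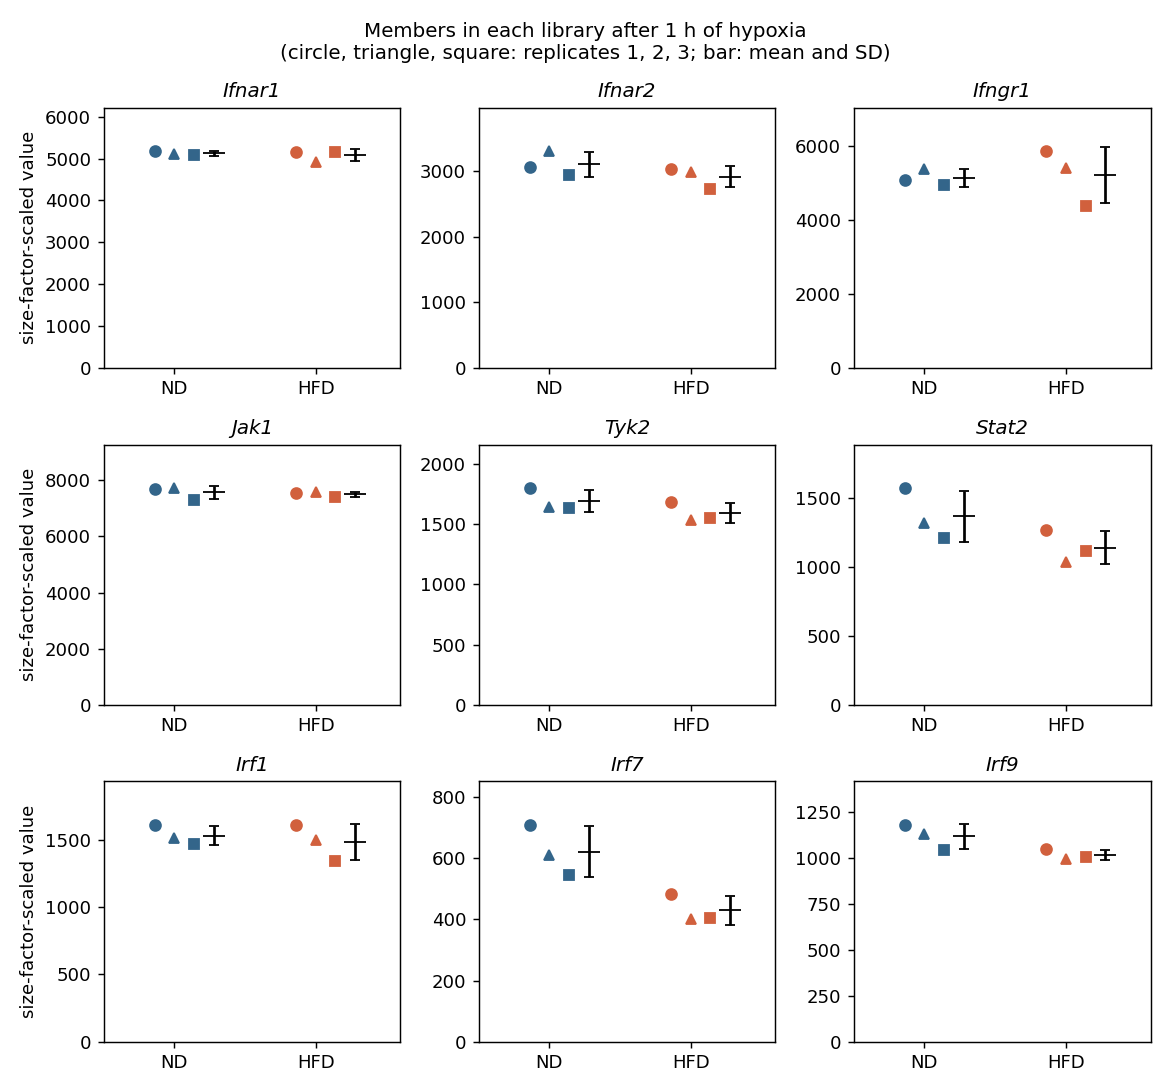
Size-factor-scaled value (vertical axes, from 0) of each of the 9 members in the 3 ND and 3 HFD libraries, with the mean and SD of each diet beside the points. The 3 HFD values of *Irf7* lie between 400 and 483, below its 3 ND values of 547 to 709, while the diets overlap for the other 8 members.

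*Irf7*, the interferon regulatory factor that amplifies type I interferon production, lies on chr7:141262706-141266481 on the minus strand (GENCODE M21, GRCm38). Its values, in the order of replicates 1 to 3, which holds for each gene that follows, were 709, 610 and 547 in the ND libraries and 483, 400 and 405 in the HFD libraries. Every HFD library was below every ND library. Its mean was 622 ± 82.0 on ND and 429 ± 46.2 on HFD (SD over 3 libraries of each diet), so that HFD stood at 69.0% of ND. The log2 fold change was -0.53 (SE 0.11, 95% interval -0.78 to -0.28), with a limma unadjusted p of 0.00093 and an adjusted p of 0.196. It ranked at place 63 by p among the 13232 genes. The call depended on ND replicate 3: without that library the log2 fold change was -0.62 with a limma adjusted p of 0.0319. It was also called with limma array weights, which reweighted every library (from 0.441 for ND replicate 3 to 3.09 for HFD replicate 2), at -0.66 with an adjusted p of 0.0065. Neither call was particular to *Irf7*: 233 of the 13232 genes were called without ND replicate 3, and 1133 with array weights. Over all alternatives run, the limma adjusted p of *Irf7* went from 0.0065 to 0.860. No exon base of *Irf7* is shared with another annotated gene.

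*Stat2* encodes the STAT that is particular to type I and type III interferon signalling, and lies on chr10:128270559-128292849 on the plus strand. It measured 1577, 1320.1 and 1214 in the ND libraries and 1270, 1038 and 1121 in the HFD libraries. The diets overlapped, because HFD replicate 1 stood above ND replicate 3. The means were 1370 ± 186 on ND and 1143 ± 117 on HFD (SD over 3 libraries of each diet), with a log2 fold change of -0.26 (SE 0.11, 95% interval -0.50 to -0.019). The limma unadjusted p was 0.0371 and the adjusted p 0.435. The unadjusted p was over 0.05 in 4 of 6 fits without 1 library (0.0527 to 0.164) and 0.0783 without the mean-variance trend. Single libraries moved the fold change, to -0.15 without ND replicate 1 and to -0.34 without ND replicate 3. With array weights, under which 1133 of the 13232 genes were called, the log2 fold change was -0.42 (limma adjusted p 0.0263).

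*Irf9*, which gives ISGF3 its DNA-binding specificity, lies on chr14:55603571-55610030 on the plus strand. Its values were 1178, 1126 and 1042 in the ND libraries and 1045, 993 and 1002 in the HFD libraries. HFD replicate 1 lay just above ND replicate 3, and the other libraries were separated by diet. The log2 fold change was -0.14 (SE 0.069, 95% interval -0.29 to 0.019), with a limma adjusted p of 0.542. About 3.97% of its exon bases are shared with *Rnf31* on the same strand, so a small part of its reads could be placed on either gene.

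*Irf1*, the factor induced through GAS elements by IFN-gamma, did not follow *Irf7*. It measured 1611, 1516 and 1467 in the ND libraries and 1606, 1499 and 1339 in the HFD libraries. The diets overlapped, with HFD replicate 3 below every ND library. The log2 fold change was -0.051 (SE 0.079, 95% interval -0.23 to 0.13, limma adjusted p 0.863), and it was 0.020 without HFD replicate 3. Its exons share 100 bases with *Gm17334* on the opposite strand, and the strand setting of the counting is not given in the sources used here.

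The receptor chains had levels that differed little between diets. *Ifnar1*, on chr16:91485238-91507441, measured 5182, 5107 and 5081 in the ND libraries and 5167, 4907 and 5164 in the HFD libraries. These 6 values lay within a narrow band (coefficient of variation 2.01%), and the log2 fold change was -0.013 (SE 0.056, 95% interval -0.14 to 0.11, limma adjusted p 0.957). *Ifnar2*, its partner chain on chr16:91372783-91405589, measured 3058, 3311 and 2943 in the ND libraries and 3031, 2987 and 2734 in the HFD libraries. HFD replicate 3 was the lowest library and ND replicate 2 the highest, with the others between them. Its log2 fold change was -0.089 (SE 0.069, 95% interval -0.24 to 0.066, limma adjusted p 0.698). Of the exon bases of *Ifnar2*, 9.92% are shared with *Gm21970* on the same strand, whose own mean value was 101.

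*Ifngr1*, the ligand-binding chain for IFN-gamma on chr10:19591949-19610229, varied most among the receptor chains. It measured 5073, 5387 and 4933 in the ND libraries and 5866, 5400.2 and 4368 in the HFD libraries. HFD replicate 1 was the highest of the 6 libraries and HFD replicate 3 the lowest, so the spread lay within the HFD diet. The log2 fold change was 0.013 (SE 0.10, 95% interval -0.21 to 0.24, limma adjusted p 0.979), and its sign turned without ND replicate 3 (-0.015), HFD replicate 1 (-0.078) or HFD replicate 2 (-0.019).

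The kinases are *Jak1*, used by both receptors, and *Tyk2*, the partner of IFNAR1. *Jak1*, on chr4:101152367-101265282, measured 7676, 7733 and 7312 in the ND libraries and 7533, 7580.3 and 7411 in the HFD libraries. The diets overlapped within a coefficient of variation of 2.10% over all 6 libraries. Its log2 fold change was -0.012 (SE 0.057, 95% interval -0.14 to 0.12, limma adjusted p 0.960), and 0.0030 without ND replicate 2. *Tyk2*, on chr9:21104068-21131243, measured 1802, 1646 and 1639 in the ND libraries and 1688, 1535 and 1549.9 in the HFD libraries. ND replicate 1 was the highest library, and HFD replicate 1 stood above ND replicates 2 and 3. Its log2 fold change was -0.092 (SE 0.069, 95% interval -0.25 to 0.062, limma adjusted p 0.686).

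**Figure D2:**
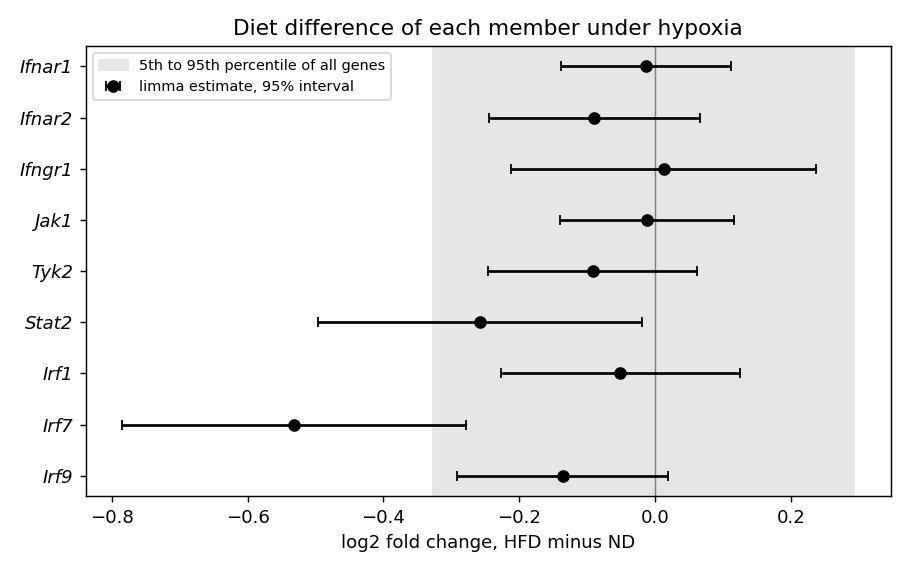
Log2 fold change (horizontal axis, HFD minus ND) of each member with limma's 95% interval, over a grey band that spans the 5th to 95th percentile of all 13232 genes (-0.33 to 0.29). *Irf7* at -0.53 lies outside the band, and the intervals of *Irf7* and *Stat2* alone do not cross 0.

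Set per length of merged exons (GENCODE M21 basic set), the members spanned an upper and a lower range. *Ifngr1* had the highest level, with 2068 to 2777 per kb over the 6 libraries, followed by *Jak1* (1490.5 to 1576), *Ifnar1* (1255 to 1326) and *Ifnar2* (861 to 1043). None of these 4 overlapped its neighbour in that order. *Irf1* came next with 401 to 483 per kb, above *Irf9* with 320.1 to 379.6. The ranges of *Irf9*, *Tyk2* (276 to 324), *Stat2* (236 to 359) and *Irf7* (167 to 296) each overlapped that of the next gene. Within libraries *Irf9* exceeded *Tyk2* and *Stat2* exceeded *Irf7* in 6 of 6, while *Tyk2* exceeded *Stat2* in 4 of 6, so the order of that last pair was not resolved. The receptor chains and *Jak1* thus exceeded the transcription factors and *Tyk2* in every library, on this scale of value per kb. The annotation the authors counted with is not given in the sources used here, so these lengths are approximate.

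**Figure D3:**
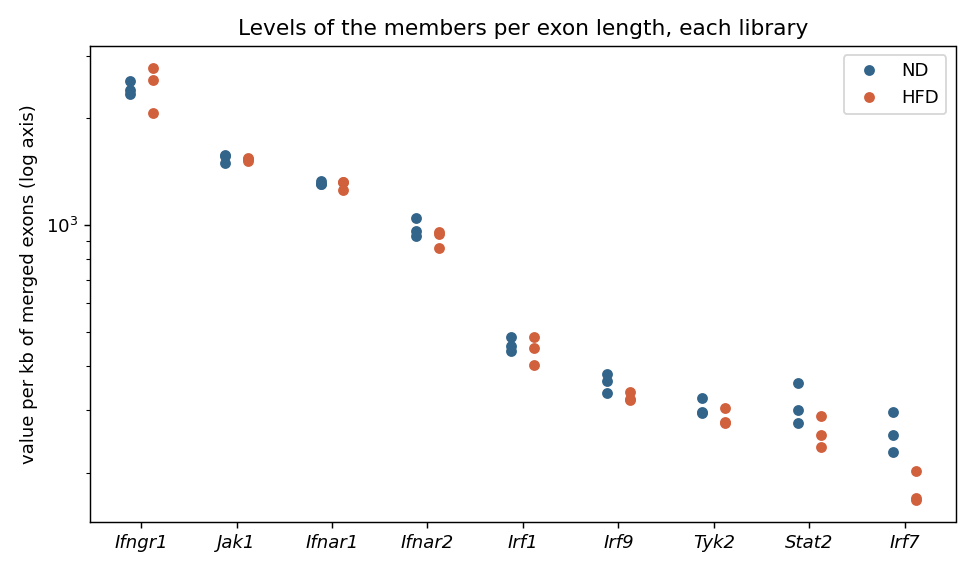
Value per kb of merged exons (vertical axis, log scale) for each member in each ND and HFD library, ordered by the mean over the 6 libraries. Levels run from *Ifngr1* at 2068 to 2777 down to *Irf7* at 167 to 296.

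Ratios between partner genes, or between genes of the same family such as *Irf7* and *Irf1*, remove what a library shares between both genes. On the log2 scale *Irf7* less *Irf1* was -1.18, -1.31 and -1.42 in the ND libraries and -1.73, -1.90 and -1.72 in the HFD libraries. The diets did not overlap, and the mean was 0.48 lower in HFD. The exact two-sided permutation p was 0.1, the smallest that 20 assignments of 6 libraries allow, and 0.4 after adjustment over the 4 ratios tested. *Ifnar1* less *Ifnar2* differed by 0.076 between diets (exact permutation p 0.5), *Jak1* less *Tyk2* by 0.080 (exact permutation p 0.2) and *Irf9* less *Stat2* by 0.12 (exact permutation p 0.3), and each of these 3 overlapped.

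Across the 6 libraries *Stat2* and *Irf9* kept the same order, with ND replicate 1 highest, then ND replicate 2, HFD replicate 1, ND replicate 3, HFD replicate 3 and HFD replicate 2. *Irf7* differed from that order only in that ND replicate 3 stood above HFD replicate 1. Pearson's r of *Irf7* on log2 values over these 6 libraries was 0.961 with *Irf9*, 0.934 with *Stat2* and 0.881 with *Tyk2*, and between 0.169 and 0.629 with the other 5 members. The genes most like *Irf7* among the 10794 with a mean of at least 100 included *Tspyl4* (r = 0.991) and *Snx29* (0.990). Those most like *Stat2* were *Sh3pxd2a* (0.986), *Zfp526* (0.984) and *Glb1l* (0.983). With 6 points that share library, depth and diet, such values are a description of likeness and nothing more.

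**Figure D4:**
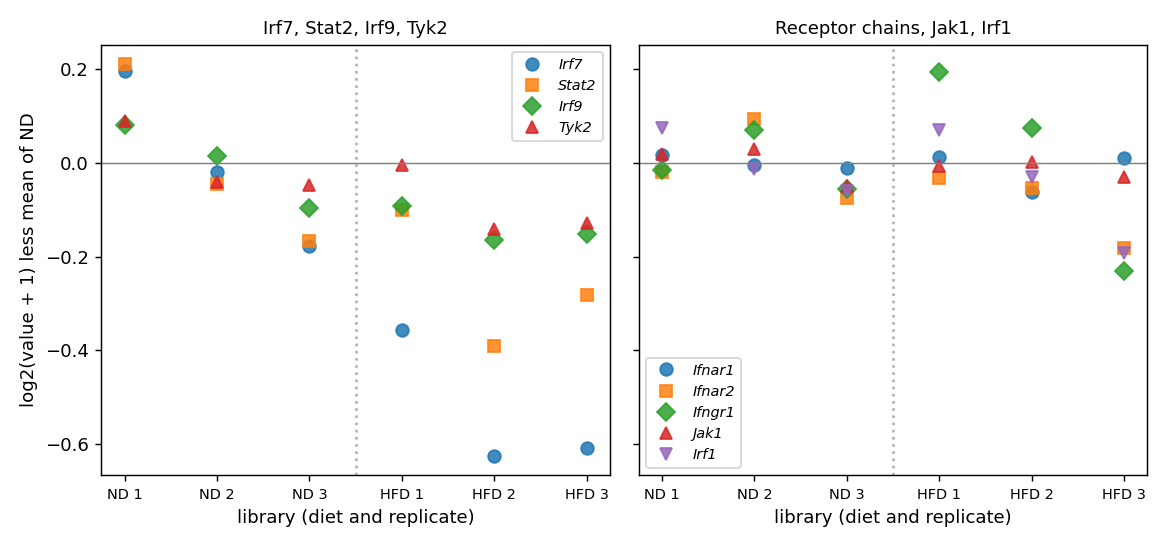
Log2(value + 1) of each member less its mean over the 3 ND libraries (vertical axis), for each library (horizontal axis). In the left panel *Irf7*, *Stat2*, *Irf9* and *Tyk2* are lowest in HFD replicates 2 and 3, and in the right panel *Ifngr1* is highest in HFD replicate 1 and lowest in HFD replicate 3.

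The rest of the pathway was described with lists of known genes. Among other receptor chains, kinases and STATs, 10 of 11 genes had a row, 8 of them with a log2 fold change below 0, and the list median was -0.054. *Stat4* measured 38.6, 43.8 and 34.2 in the ND libraries and 26.0, 26.6 and 28.7 in the HFD libraries. Its diets did not overlap, and its log2 fold change was -0.50 (SE 0.23, limma adjusted p 0.492). *Jak3*, a kinase of cytokine receptors with the common gamma chain, also had no overlap, at -0.14 (limma adjusted p 0.587). In the list 3 of 10 had no overlap, all lower in HFD, against 7.07% of all genes.

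The 6 other IRF genes gave values in both directions, with a median of -0.0072 and 3 on each side of 0. *Irf4* measured 298, 252 and 218 in ND and 206, 160.2 and 204 in HFD (log2 fold change -0.43, limma adjusted p 0.353). *Irf5*, a factor of Toll-like receptor signalling, measured 4133, 4244 and 4556 in ND and 4859, 5135 and 4723 in HFD (0.19, limma adjusted p 0.357). Both were free of overlap between diets, in opposite directions, and neither was called. Of the 6, 1 was thus lower and 1 higher without overlap, against 7.07% and 7.44% of all genes. For *Irf3*, which is activated by phosphorylation, the diets overlapped at a log2 fold change of -0.037 (limma adjusted p 0.901).

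Of the negative regulators 12 of 15 had a row, 6 on each side of 0, with a median of -0.018. *Usp18*, an interferon-induced protein that blocks IFNAR2, had the smallest p in this list, with values of 161, 121 and 115 in ND and 116, 92.6 and 85.2 in HFD. HFD replicate 1 overlapped ND replicate 3, and the log2 fold change was -0.43 (limma adjusted p 0.431). *Pias3* (-0.13) and *Ptpn2* (0.11) followed, with limma adjusted p-values of 0.631 and 0.705. The list of nucleic acid sensors and kinases that activate IRFs had 23 symbols, of which 2 were older names of genes also listed. All 21 genes had a row, 15 below 0, with a median of -0.037. Their smallest p-values belonged to the RNA sensors *Ddx58* (-0.28, limma adjusted p 0.297) and *Dhx58* (-0.18, 0.423) and the nucleic acid sensor *Zbp1* (-0.45, 0.337). These 3 had no overlap between the diets. In the list 4 of 21 had none, all lower in HFD, against 7.07% of all genes.

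None of the 11 interferon ligand genes looked for had a row in the table analysed here, so the levels of the ligands themselves are not described. The list of ISGF3 targets had 28 of 30 genes, of which 26 were below 0 and 20 had an unadjusted p under 0.05 with lower values in HFD (background 5.18%). Their median was -0.38, and the diets did not overlap for 11, all lower in HFD (background 7.07% lower and 7.44% higher). *Bst2*, a protein that tethers budding virus, measured 928, 836 and 874 in ND and 734, 655 and 663 in HFD (-0.36, limma adjusted p 0.195). *Oasl2* (-0.38, limma adjusted p 0.217) and *Ifi211* (-0.35, 0.239) followed, also without overlap. The list of GAF and IRF1 targets had 20 of 23 genes, 16 below 0 and 6 at an unadjusted p under 0.05, all lower in HFD, with a median of -0.19. Here the smallest p-values were those of the guanylate-binding proteins *Gbp9* (-0.32, limma adjusted p 0.318) and *Gbp3* (-0.59, 0.320) and of the peptide transporter *Tap1* (-0.24, 0.362). No gene of any of these lists was called by limma with all 6 libraries. That interferon-stimulated genes have lower values in HFD was known when these lists were written, so their counts are not independent evidence of that direction.

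**Figure D5:**
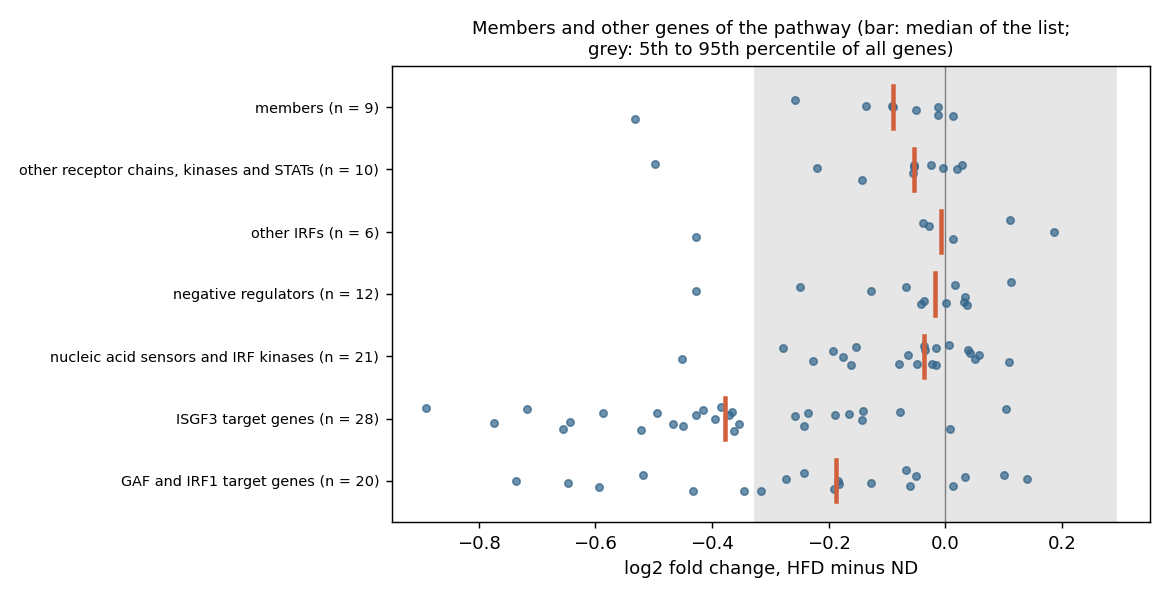
Log2 fold change (horizontal axis, HFD minus ND) of the 9 members and of each gene in 6 lists of the pathway, with list medians as bars and the 5th to 95th percentile of all genes in grey. The ISGF3 targets have the lowest median (-0.38), followed by the GAF and IRF1 targets (-0.19).

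Because whole cultures were measured, fewer cells of a type and less RNA per cell cannot be told apart. Plasmacytoid dendritic cells are known for high *Irf7*. Of their 8 markers *Tcf4* and *Bst2* had a row, with a summed value of 4010 to 5082 in ND and 3921 to 4477 in HFD, and *Siglech* and the other 5 had none in the table analysed here. *Bst2* is also an ISGF3 target. Of 10 neutrophil markers 7 had a row, with sums of 1776 to 2592 in ND and 2367 to 3750 in HFD. All 7 had a log2 fold change above 0, with a median of 0.38. Of 6 stromal markers the 3 collagen genes had a row, with sums of 177 to 549 in ND and 51.8 to 337 in HFD. All 3 had a log2 fold change below 0, with a median of -1.33. Of 6 B cell markers *Ighm* had a row (1889 to 3061 in ND, 1876 to 2075 in HFD), of 8 T and NK cell markers *Cd4* (202 to 356 in ND, 98.1 to 230.0 in HFD), and of 5 mast cell markers *Kit* (117 to 226 in ND, 72.4 to 104 in HFD). None of the 7 conventional dendritic cell or 5 erythroid markers had a row. The part of these cells in the values of *Irf7* was not tested.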

How the data were processed

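Ribosomal RNA was depleted from 100 ng of total RNA, and stranded libraries were sequenced as single reads of 75 bases, per the labels' protocols. The submitters' processing notes name STAR, Partek and the build mm10. Other settings are not given in the sources used here. The deposited signal values are gene read estimates that the authors divided by a size factor per library, as read from the values: in each library a single step divided 57.1% to 58.4% of the values from 5 to 1000 into whole reads, to within 0.02 of a read. Too many were fractional for a count test. NC in a column name was read as ND, since the labels give no diet besides ND and HFD, and its final digit before the time as the replicate. Of 12 libraries in the labels, the 6 hypoxia libraries had columns, and no column was left unused.

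Each gene was compared with limma 3.58.1 in R 4.3.3 (log2(value + 1), mean-variance trend, two-sided), which was also tested on simulated data. A minimum mean of 1 removed no gene. Ratios used exact permutation tests (scipy 1.17.1). Alternatives were another pseudocount, filters, scalings, variance models, array weights, a replicate block and leaving out each library. Over 10794 genes, residuals from the diet means were little correlated between libraries of the same replicate number (0.089, -0.11 and 0.027). That does not exclude pairing in single genes, and the labels do not say whether the numbers pair libraries. For *Irf7*, *Stat2* and *Irf9*, replicate 1 was the highest library within each diet. The members and lists were chosen with earlier results of these data known. Genes named outside the members are the 3 with the smallest p in each list, the 3 most like *Irf7* or *Stat2*, cell type markers, and genes that share exon bases with a member. Some genes under this rule are not reported here. Planned comparisons of member proteins were not run. GENCODE M21 and RefSeq (both GRCm38, the mm10 build) gave positions, lengths and promoters. Intervals for counting error cover counting only, as PCR copies cannot be told from molecules here.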

Additional observations from a re-analysis of the deposited data

How the results depend on the processing

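Of 135 values of the 9 members under 15 alternatives, 126 stayed uncalled with their sign unchanged, 3 were called and 6 reversed in sign. The called values were *Irf7* with array weights (-0.66) and without ND replicate 3 (-0.62), and *Stat2* with array weights (-0.42). The reversals were all of values near 0, when 1 library was left out: *Ifnar1* (0.012 without HFD replicate 2), *Jak1* (0.0030 without ND replicate 2), *Irf1* (0.020 without HFD replicate 3) and *Ifngr1* (-0.015, -0.078 and -0.019 without ND replicate 3, HFD replicate 1 and HFD replicate 2). Across the 6 fits without 1 library, *Irf7* ran from -0.62 to -0.43, *Stat2* from -0.34 to -0.15, *Irf9* from -0.18 to -0.096, *Tyk2* from -0.14 to -0.047, *Ifnar1* from -0.025 to 0.012, *Ifnar2* from -0.13 to -0.042, *Ifngr1* from -0.078 to 0.13, *Jak1* from -0.037 to 0.0030 and *Irf1* from -0.11 to 0.020. Outside those ranges lay *Tyk2* (-0.15), *Ifnar1* (-0.047), *Irf7* (-0.66), *Stat2* (-0.42) and *Irf9* (-0.19) with array weights, *Jak1* after quantile normalization (-0.054) and *Ifnar1* after it (-0.029).

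The number of genes called, 0 with all libraries, was 1133 with array weights (3646 at an unadjusted p) and ran from 0 to 233 without 1 library (233 when ND replicate 3 was omitted, 2 for HFD replicate 1 and 1 for ND replicate 2). The replicate block called 31 genes. Under it *Irf7* had a limma adjusted p of 0.0517 and no member changed its call, but 1 ISGF3 target passed. With array weights, against 1133 of 13232 genes, 22 of 28 ISGF3 targets, 9 of 20 GAF and IRF1 targets and 4 of 21 sensors passed. Of the other IRFs 2 of 6 passed, of the negative regulators 1 of 12, and of the other receptor chains, kinases and STATs 1 of 10. The shares of the negative regulators and of the last list lie near that of all genes, and the median of the last list was -0.084. Without 1 library the numbers passing ran from 0 to 4 for ISGF3 targets, 0 to 1 for GAF and IRF1 targets and 0 to 1 for sensors, each highest without ND replicate 3. List medians without 1 library ran from -0.090 (ND replicate 3 omitted) to -0.0094 (ND replicate 1 omitted) for other receptor chains, kinases and STATs, and from -0.059 (HFD replicate 1 omitted) to 0.046 (HFD replicate 3 omitted) for negative regulators. The same omissions took the median of the sensors from -0.065 (ND replicate 3) to -0.0047 (ND replicate 1) and that of other IRFs from -0.031 (HFD replicate 1) to 0.029 (HFD replicate 3), and the latter was 0.0078 without ND replicate 2. The cause of these shifts was not tested. No ratio between members reversed in the alternatives run, but without 1 library *Ifnar1* less *Ifnar2* ran from 0.018 to 0.12, *Jak1* less *Tyk2* from 0.045 to 0.12, *Irf9* less *Stat2* from 0.057 to 0.18 and *Irf7* less *Irf1* from -0.54 to -0.42. Other scalings moved the median of all genes by less than 0.1 on the log2 scale. Precision is limited by 3 libraries per diet.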

Other observations

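The ISRE-like and GAS-like patterns were also looked up in the promoters of all measured genes, a step chosen after the values of the members were seen. Of 9021 measured genes with a promoter in the RefSeq table, 358 held the ISRE-like pattern in a window of the same length. Among these the diets did not overlap, with lower values in HFD, for 9.78%, against 6.12% of the 8663 genes without it. Their median log2 fold change was -0.035, against 0.0031 in genes without it. For the GAS-like pattern the shares were 6.83% of 732 genes with it and 6.21% of 8289 without it. Genes without overlap and with higher values in HFD were also more frequent where a pattern was present, at 8.66% against 7.75% for the ISRE-like and 9.84% against 7.60% for the GAS-like pattern. At an unadjusted limma p under 0.05 the shares for the ISRE-like pattern were 14.5% against 4.05% lower in HFD and 5.31% against 5.66% higher, with and without it. These are descriptions with no test, and genes share libraries. Of the ISGF3 targets with a promoter in the table, 13 of 21 held the ISRE-like pattern, and of the GAF and IRF1 targets 8 of 15 held it and 5 held the GAS-like pattern.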
